A study of Mus musculus with 6 samples.

Results

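Receptor genes that start or restrain fat breakdown were examined in cultured stromal cells of mouse visceral fat given irisin. With them were 2 genes for proteins that carry or end their signal. The 8 genes, Adrb1, Adrb3, Adra2a, Npr1, Npr2, Npr3, Pde3b and Prkar2b, were taken by symbol from the 55011 genes of the count table, and each was present once. The cells were mesenchymal stromal cells (mSCs), connective-tissue cells of fat that include adipocyte precursors, from the tissue labelled VAT and called eWAT in the design text. They were negative for EGFP reporting Il33 (genotype label Il33-EGFP-), which held for all 6 libraries. For 3 days they received either PBS (n = 3) or 10 nM irisin/HSP90α (n = 3, called irisin below). The titles name irisin alone, and the labels do not state if HSP90α was added to the PBS wells. Neither the age of the mice nor whether replicates were separate animals or cultures is given, so p-values measure only the spread between these libraries. The comparison asks whether irisin/HSP90α moves the cells away from the adipocyte precursor state.

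In fat cells, noradrenaline acting on β-adrenergic receptors raises cyclic AMP (cAMP), which frees the catalytic subunits of protein kinase A (PKA) from their regulatory subunits. PKA then acts on hormone-sensitive lipase and perilipin to release fatty acids. The α2-adrenergic receptor lowers cAMP through an inhibitory G protein, and phosphodiesterase 3B destroys it when insulin signals. A parallel route uses cyclic GMP (cGMP): natriuretic peptides of the heart bind Npr1, a receptor with its own guanylyl cyclase, while Npr3 has no cyclase and removes the peptides. The β3 receptor Adrb3 and Prkar2b rise as precursors become fat cells.

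Total counts per library lay between 5271309 and 6745799. Levels are CPM, counts per TMM-scaled library total of the tested genes, so 1 count was worth 0.145 to 0.193 CPM. Fold changes are log2 values of irisin against PBS ± standard error, and adjusted p-values are from edgeR's quasi-likelihood test over the 12296 genes tested. Of these, 396 (3.22%) were called lower and 516 (4.2%) higher at an adjusted p of 0.05. Scaled by total counts alone, 602 were lower and 422 higher. The lower calls numbered 250 without PBS replicate 1, 238 without irisin replicate 2 and 260 without irisin replicate 3, and the higher calls 336 without irisin replicate 3. PBS replicate 3 and irisin replicate 1 stood apart from the other 4 libraries on the second principal component (23.9% of variance). Without them 788 genes were lower and 892 higher. Stromal markers, among them Pdgfra and Col1a1, summed to 31350 CPM or more in every library. Of the leukocyte markers Ptprc had at most 3 counts in a library and Cd3e 0, but the myeloid Csf1r had 286 to 414. Of the 5774 exon bases of Csf1r, 873 lie opposite exons of Hmgxb3, which had 189 to 377 counts, and the strand setting of the counting is not given. Among the 8 leukocyte markers, 4 had 3 counts or fewer in every library. The 8 summed to 66.6 to 81.9 CPM with PBS against 62.4 to 86.9 CPM with irisin. Of the endothelial markers Pecam1 had at most 6 counts and Tek 93 to 238.

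Irisin left the measurable part of the receptor set at lower or similar levels. Adrb3 and Npr1, the β3-adrenergic receptor and the signalling receptor for atrial natriuretic peptide, fell. Npr2, Npr3, Pde3b and Prkar2b did not pass the test, and Adrb1 and Adra2a were too low to test. Thus 2 of the 6 genes tested changed, beside 7.42% of all genes tested. Both were lower, beside 3.22% of all, and 0 were higher, beside 4.2%. In edgeR 0 were higher also at an unadjusted p of 0.05, and DESeq2 and limma-voom called 0 higher. The median log2 fold change of the 6 was -0.28, against -0.01 for all genes tested. The call for each of the 6 was the same in each of the 14 alternative fits that tested it, including the one without PBS replicate 3 and irisin replicate 1.

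**Figure D1:**
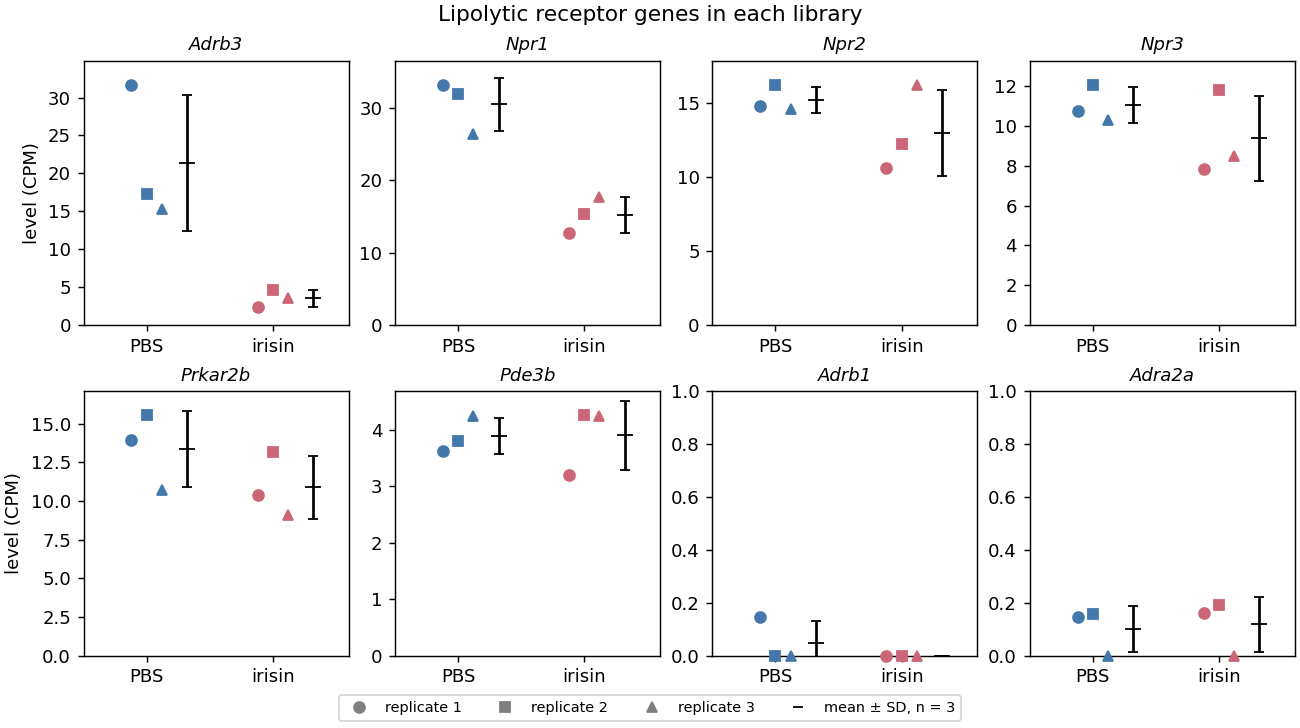
Level of each of the 8 genes (vertical axis, CPM, a separate scale per gene) in the 3 PBS and 3 irisin libraries. Symbols mark the replicate number, and the bar beside each group gives mean ± SD. Adrb3 and Npr1 show no overlap between groups, and Adrb1 and Adra2a lie below 0.2 CPM.

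Adrb3 encodes the β-receptor that dominates in rodent fat and couples to the stimulatory G protein. Its level was 31.6, 17.3 and 15.3 CPM in PBS replicates 1, 2 and 3 and 2.40, 4.64 and 3.61 CPM in irisin replicates 1, 2 and 3. The groups were far apart, and PBS replicate 1 was well above the other PBS libraries. The mean went from 21.4 ± 8.93 to 3.55 ± 1.12 CPM, a 6.12-fold fall (log2 -2.61 ± 0.33, 95% interval -3.35 to -1.87, adjusted p = 0.000491). Without PBS replicate 1 the log2 change was -2.21. Of all genes tested, 11.5% had irisin values wholly below the PBS values, as Adrb3 and Npr1 did. In PBS the level of Adrb3 rested on 83 to 218 counts, and with irisin on 15 to 24. The gene lies on chromosome 8 from 27225776 to 27250616 (GRCm38, minus strand), and 839 of its 3376 exon bases are also exon of an antisense gene, Gm45470, which had at most 5 counts in a library. Whether counting used strand is not given in the sources used here.

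Mature adipocyte markers moved with Adrb3. Of 12 markers 9 were tested, and 8 were lower and 1 higher (Slc36a2, an amino acid transporter), beside 3.22% and 4.2% of all genes, with a median log2 change of -2.18. With a count minimum of 50, 5 of 6 tested were lower. Lower calls numbered 7 with limma-voom, with the replicate number as a block and without irisin replicate 2. They numbered 6 with no low-count filter (10 tested), without PBS replicate 3, and without both PBS replicate 3 and irisin replicate 1. The 12 markers summed to 1230, 769 and 792 CPM in PBS replicates 1, 2 and 3 and 331 to 383 CPM in irisin. PBS replicate 1 thus had the highest sum as well as the highest Adrb3. Most of the PBS sum came from 1 gene, Car3, at 840, 487 and 528 CPM in PBS replicates 1, 2 and 3. In irisin Car3 was at 95.7 to 155 CPM. Lipe, Plin1 and Cidec are shared with the list of lipid droplet proteins described further on. Lep and Cidea, 2 of the 12 markers listed, had 0 counts in every library. Stromal markers moved too, from sums of 31350, 35870 and 37910 CPM in the 3 PBS libraries to 43130, 46170 and 47270 CPM in the 3 irisin libraries, without overlap. Of the 10, 3 were lower (Dpt, Lum and Thy1, 30.0%, beside 3.22% of all genes). Another 2 were higher (Pdgfra and Col1a1, 20.0%, beside 4.2%). The higher ones numbered 4 with DESeq2, 5 with limma-voom, with no low-count filter or when PBS replicate 3 was omitted, and 1 on omitting irisin replicate 2 or 3. The part of adipocyte or stromal content in the fall of Adrb3 was not tested, and in such bulk RNA fewer cells of a type and less RNA per cell cannot be told apart.

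The search for like profiles covered 9902 tested genes whose mean reached 5 CPM. The profiles nearest to that of Adrb3 over the 6 libraries were those of Car3, Adipoq and Inmt. Likeness was the root mean square difference of centred log2(CPM + 1), 0.11 for Car3, 0.25 for Adipoq and 0.30 for Inmt. Car3, a carbonic anhydrase abundant in fat, went from 618 ± 193 to 130 ± 30.6 CPM and was likewise highest in PBS replicate 1, at 840 CPM. Adipoq encodes the fat hormone adiponectin, and Inmt a methyltransferase of small amines. Car3 and Adipoq are also in the adipocyte list above, so their likeness to Adrb3 is not separate from that of the summed markers.

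The other adrenergic receptors gave little signal apart from one α1 receptor. Adrb1, the β-receptor best known from the heart, had 1 count in PBS replicate 1 and 0 in the other 5 libraries. Adra2a, the inhibitory α2A receptor, had 0 or 1 count in each library. A count of 0 allows up to 3 counts, which is 0.435 to 0.580 CPM here, so both genes were at or under the detection limit in both groups and no fold change is given. Adrb1 lies on chromosome 19 from 56722199 to 56733113 and Adra2a on the same chromosome from 54044151 to 54048982. Adra1b, an α1 receptor that signals through calcium, was at 18.5 ± 3.67 CPM in PBS and 18.6 ± 1.93 CPM in irisin (log2 change 0.00 ± 0.17, adjusted p = 0.998).

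The make-up of the adrenergic receptors differed accordingly. Per kilobase of exon, Adrb3 made up 53.2%, 43.7% and 45.4% of the counts of the 9 adrenergic receptor genes in PBS replicates 1, 2 and 3. In irisin replicates 1, 2 and 3 it made up 9.60%, 18.0% and 11.6%. The share of Adra1b was 37.0% to 47.3% in PBS and 66.4% to 68.9% in irisin, with groups apart and no change in its own level past the threshold. The planned ratio of Adra2a to the β-receptors was not read, since Adra2a rested on at most 1 count.

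**Figure D2:**
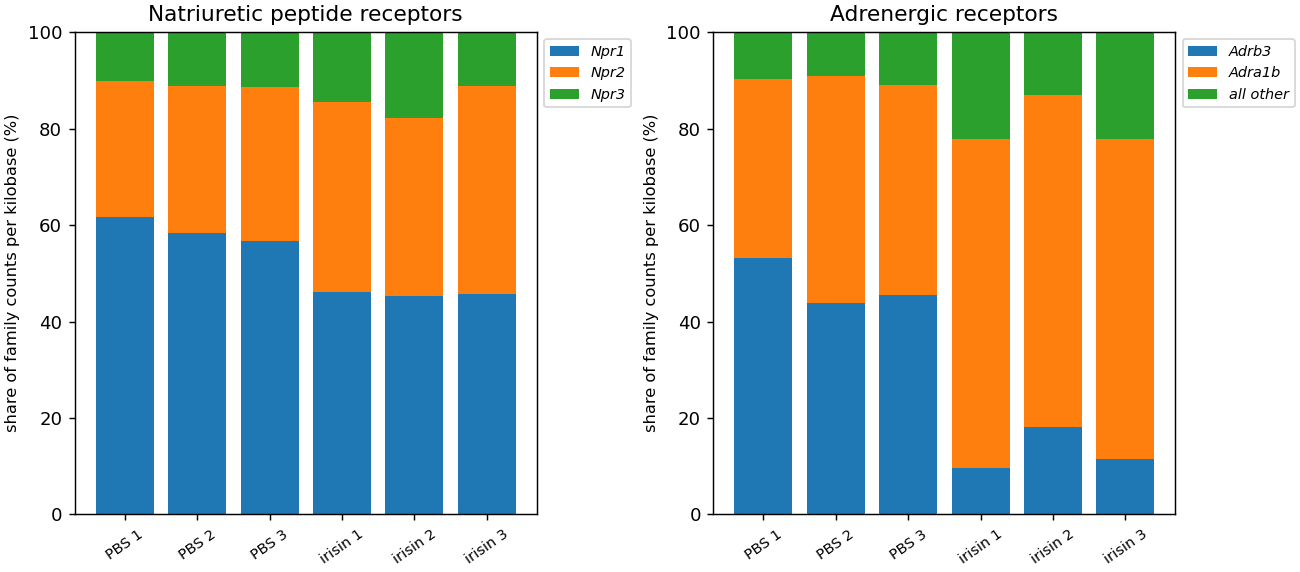
Share of each gene in its receptor family (vertical axis, percent of the family's counts per kilobase of exon) in each library, for natriuretic peptide receptors (left) and adrenergic receptors (right, with all genes but Adrb3 and Adra1b summed). Npr1 lies at 56.6% to 61.6% in PBS but 45.2% to 46.0% with irisin, and Adrb3 at 43.7% to 53.2% but 9.60% to 18.0%.

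The natriuretic peptide receptors are shown by the start of their genes, because 1 of the 3 fell and the others did not pass. Each window, from RefSeq on build GRCm38.p6, runs from 250 bases before the annotated start to 50 after it, on the strand of the gene. Capitals mark the CCAAT box and the GC box GGGCGG, on either strand. Npr1 is chr3:90465817-90466116 (minus strand), Npr2 chr4:43631685-43631984 (plus strand) and Npr3 chr15:11907322-11907621 (minus strand). GENCODE M21 starts Npr3 at 11907287, so the RefSeq window of Npr3 lies wholly before that start.
Npr1: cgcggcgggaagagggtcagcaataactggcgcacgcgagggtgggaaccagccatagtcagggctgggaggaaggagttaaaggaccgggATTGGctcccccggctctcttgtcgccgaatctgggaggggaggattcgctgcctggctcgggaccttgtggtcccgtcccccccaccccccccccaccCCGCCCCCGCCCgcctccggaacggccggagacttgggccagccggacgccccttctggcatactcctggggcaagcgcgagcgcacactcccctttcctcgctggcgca
Npr2: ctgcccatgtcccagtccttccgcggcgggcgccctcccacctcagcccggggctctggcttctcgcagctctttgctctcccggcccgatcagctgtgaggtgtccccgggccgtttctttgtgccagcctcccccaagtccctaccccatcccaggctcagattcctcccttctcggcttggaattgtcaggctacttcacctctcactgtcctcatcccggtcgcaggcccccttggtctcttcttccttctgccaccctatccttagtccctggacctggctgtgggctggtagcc
Npr3: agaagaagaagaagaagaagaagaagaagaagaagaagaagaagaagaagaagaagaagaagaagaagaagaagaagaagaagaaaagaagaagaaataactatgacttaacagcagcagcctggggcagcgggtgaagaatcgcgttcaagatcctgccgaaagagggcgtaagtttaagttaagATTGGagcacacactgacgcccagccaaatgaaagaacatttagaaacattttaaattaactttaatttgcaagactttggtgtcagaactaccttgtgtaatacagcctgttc
The Npr1 window held 69.7% G and C, that of Npr2 64.0% and that of Npr3 39.0%, against a median of 52.7% over 32851 windows. CCAAT occurred once in the windows of Npr1 and Npr3, as in 37.4% of all windows, and GGGCGG matched at 2 places in Npr1 and none in Npr2 or Npr3, against 35.7% of all windows with a match. The cAMP response element TGACGTCA (1.8% of all windows), the nuclear receptor site AGGTCA (16.3%), the C/EBP motif TTGCNNNAA (9.6%), TATAAA (13.6%) and the E-box CACGTG (7.2%) had no match in the 3 windows. TGACG, which lies within TGACGTCA, matched once in Npr3 and is held by 20.8% of all windows. These are letter matches only and carry no measurement of binding.

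Npr1 makes cGMP when it binds atrial or B-type natriuretic peptide. Its level was 33.1, 31.9 and 26.3 CPM in PBS replicates 1, 2 and 3 and 12.6, 15.3 and 17.6 CPM in irisin replicates 1, 2 and 3. The groups did not overlap, and the libraries within a group lay close together. The mean went from 30.4 ± 3.60 to 15.2 ± 2.48 CPM, a 2.01-fold fall (log2 -1.01 ± 0.16, 95% interval -1.36 to -0.66, adjusted p = 0.00141). Over the 14 alternatives the log2 change ran from -1.13 to -0.89 and the adjusted p from 1.15e-07 to 0.0120. Npr1 lies on chromosome 3 from 90450591 to 90465866, and 559 of its exon bases lie opposite exons of Gm16048, which had at most 1 count.

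Npr2, the cyclase receptor for C-type natriuretic peptide, did not pass the test. It was at 14.8, 16.2 and 14.5 CPM in PBS and 10.6, 12.2 and 16.2 CPM in irisin replicates 1, 2 and 3. Irisin replicate 3 matched the highest PBS library, and the other irisin libraries were below all PBS libraries. The log2 change was -0.22 ± 0.19 (95% interval -0.63 to 0.18, adjusted p = 0.621). Npr3, the clearance receptor, was at 10.7, 12.0 and 10.3 CPM in PBS and 7.84, 11.8 and 8.48 CPM in irisin. The groups overlapped through irisin replicate 2, and the log2 change was -0.25 ± 0.20 (95% interval -0.69 to 0.20, adjusted p = 0.619). These intervals include no change and falls of up to 0.63 and 0.69 on the log2 scale. Npr2 lies on chromosome 4 (43631935 to 43651244) and Npr3 on chromosome 15 (11839896 to 11907287), each with a short stretch of opposite-strand exon overlap (266 and 321 bases).

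Within the family, Npr1 made up 61.6%, 58.4% and 56.6% of the counts per kilobase in PBS and 46.0%, 45.2% and 45.7% in irisin. Npr2 took 28.2% to 32.1% in PBS but 37.0% to 43.1% with irisin. Npr3 took 10.2% to 11.3% and 11.2% to 17.8%, with overlapping groups. The log2 ratio of Npr3 to Npr1 was -2.43 ± 0.14 in PBS and -1.67 ± 0.34 in irisin (SD, n = 3). Every irisin library was above every PBS library, a difference of 0.75 (exact two-sided permutation p = 0.1, the smallest that 3 against 3 allows, and 0.25 adjusted over the 5 ratios compared). The log2 ratio of Adrb3 to Npr1, added after the values were seen, was -0.07 ± 0.45 in PBS and -1.60 ± 0.36 in irisin. That difference of -1.53 likewise had groups that did not overlap (exact permutation p = 0.1, adjusted 0.25).

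The profiles nearest to Npr1 were those of Tgfbi, Des and Emp1, with root mean square differences of 0.06, 0.08 and 0.09. Tgfbi, an extracellular matrix protein induced by TGF-β, went from 43.9 ± 3.46 to 22.0 ± 3.93 CPM. Des encodes desmin, the intermediate filament of muscle, and went from 73.8 ± 8.26 to 33.7 ± 4.25 CPM. It is also 1 of the 8 pericyte and smooth muscle markers, cells known to carry Npr1. Of these markers 6 were tested and 3 were lower, Des, Cspg4 and Abcc9, beside 3.22% of all genes (1 of 3 with a count minimum of 50). Lower calls numbered 2 with the replicate number as a block and on omitting any 1 library other than PBS replicate 3. The 8 markers summed to 139 to 190 CPM in PBS and 92.8 to 141 CPM in irisin, with overlapping groups. Their part in the fall of Npr1 was not tested. None of the 8 was at 0 in every library. Endothelial markers, another known site of Npr1, summed to 35.9 to 42.8 CPM in PBS and 20.9 to 29.3 CPM in irisin. Most of this sum came from 1 gene, Tek, the angiopoietin receptor. Of the 8 markers, 4 had 3 counts or fewer in every library, and Cdh5 was at 0 in 3 libraries. Of the 2 tested, 1 was lower (Tek, beside 3.22% of all genes). Tek, named after its value was seen, lost its call when PBS replicate 1 or 2 or irisin replicate 2 or 3 was omitted (edgeR adjusted p 0.0653 to 0.143). Their part in the fall of Npr1 was not tested.

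The ligand genes gave no signal in these cells. Nppa and Nppb, which encode the atrial and B-type peptides, had 0 counts in all 6 libraries, and Nppc, the C-type peptide, had 1 count in 1 irisin library. Of 14 genes for peptides, their processing, soluble guanylyl cyclase and protein kinase G, 7 were tested. In edgeR 0 were lower and 0 higher, beside 1 lower at an unadjusted p of 0.05, 1 lower in limma-voom and 0 in DESeq2. The member of lowest p was Prkg2, a cGMP-dependent kinase, at 4.03 ± 0.826 CPM in PBS and 1.57 ± 0.866 CPM in irisin (log2 change -1.32 ± 0.40, adjusted p = 0.0726). It is named here after its value was seen. Lower calls in this list numbered 1 without PBS replicate 3 and 2 when irisin replicate 1 was also left out.

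Downstream of the receptors, Prkar2b and Pde3b did not pass. Prkar2b encodes RIIβ, the PKA regulatory subunit typical of fat and brain, and was at 13.9, 15.5 and 10.7 CPM in PBS and 10.4, 13.1 and 9.11 CPM in irisin. The groups overlapped, with PBS replicate 3 close to the irisin libraries (log2 change -0.31 ± 0.20, 95% interval -0.75 to 0.13, adjusted p = 0.492). Per kilobase it was a minor regulatory subunit, 1.49% to 2.59% of the 4 subunit genes in PBS and 1.46% to 2.08% in irisin, where Prkar1a held 90.6% to 93.4% across all libraries. The log2 ratio of Prkar2b to its relative Prkar2a was -0.75 ± 0.37 in PBS and -0.70 ± 0.39 in irisin, a difference of 0.05 (exact permutation p = 1). Prkar2b lies on chromosome 12 from 31958476 to 32061296 and shares no exon bases with another gene.

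Pde3b encodes the phosphodiesterase through which insulin lowers cAMP. Its level was 3.63, 3.80 and 4.23 CPM in PBS and 3.20, 4.25 and 4.24 CPM in irisin, on 20 to 27 counts a library. The ranges lay on each other (log2 change 0.004 ± 0.28, adjusted p = 0.998), and the 95% interval of -0.59 to 0.60 is wide at this depth. Pde3a, its family relative, held 92.7% to 94.7% of the counts per kilobase of the pair in every library. The log2 ratio of Pde3b to Pde3a was -3.93 ± 0.26 in PBS and -3.72 ± 0.10 in irisin, a difference of 0.21 (exact permutation p = 0.3, adjusted 0.375). Pde3b lies on chromosome 7 from 114415281 to 114539251.

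Per kilobase of exon, PBS cells held Npr1 (6.36 ± 0.753 CPM per kilobase) and Adrb3 (6.34 ± 2.64) at the top, with overlapping ranges. Prkar2b (3.66 ± 0.677) and Npr2 (3.25 ± 0.186) followed and also overlapped. Npr3 (1.18 ± 0.0961) and Pde3b (0.427 ± 0.0342) came next, each apart from its neighbours, and Adra2a and Adrb1 were last, both under 0.05 in every library. In irisin the order began with Npr1 (3.17 ± 0.518), Prkar2b (2.98 ± 0.563) and Npr2 (2.78 ± 0.620), whose ranges overlapped. Adrb3 (1.05 ± 0.332) now overlapped Npr3 (0.998 ± 0.226), and Pde3b (0.428 ± 0.0663) stood below them. These levels assume all annotated exons of a gene, since isoforms were not told apart.

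The wider pathway was read from 8 lists of 140 genes, of which 96 were tested, 19 lower (19.8%, beside 3.22% of all genes) and 7 higher (7.29%, beside 4.2%). Lipases and lipid droplet proteins made up 10 of the 19 falls, from 12 tested. Without that list 9 of 84 genes were lower (10.7%) and 7 higher (8.33%). These 9 falls became 4 on omitting PBS replicate 1 or irisin replicate 3 and 5 on omitting PBS replicate 2, irisin replicate 1 or irisin replicate 2. They became 15 with limma-voom and 16 with only the 4 libraries that stood together. The members of the lipase and droplet list with lowest p were the glycerol channel Aqp7 (log2 -2.90 ± 0.22, adjusted p = 2.02e-06), the lipase inhibitor G0s2 (-1.21 ± 0.09, 3.11e-06) and the droplet proteins Plin1 (-1.71 ± 0.14) and Plin4 (-1.61 ± 0.15). The other 6 falls ran from -2.84 to -0.50 on the log2 scale.

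**Figure D3:**
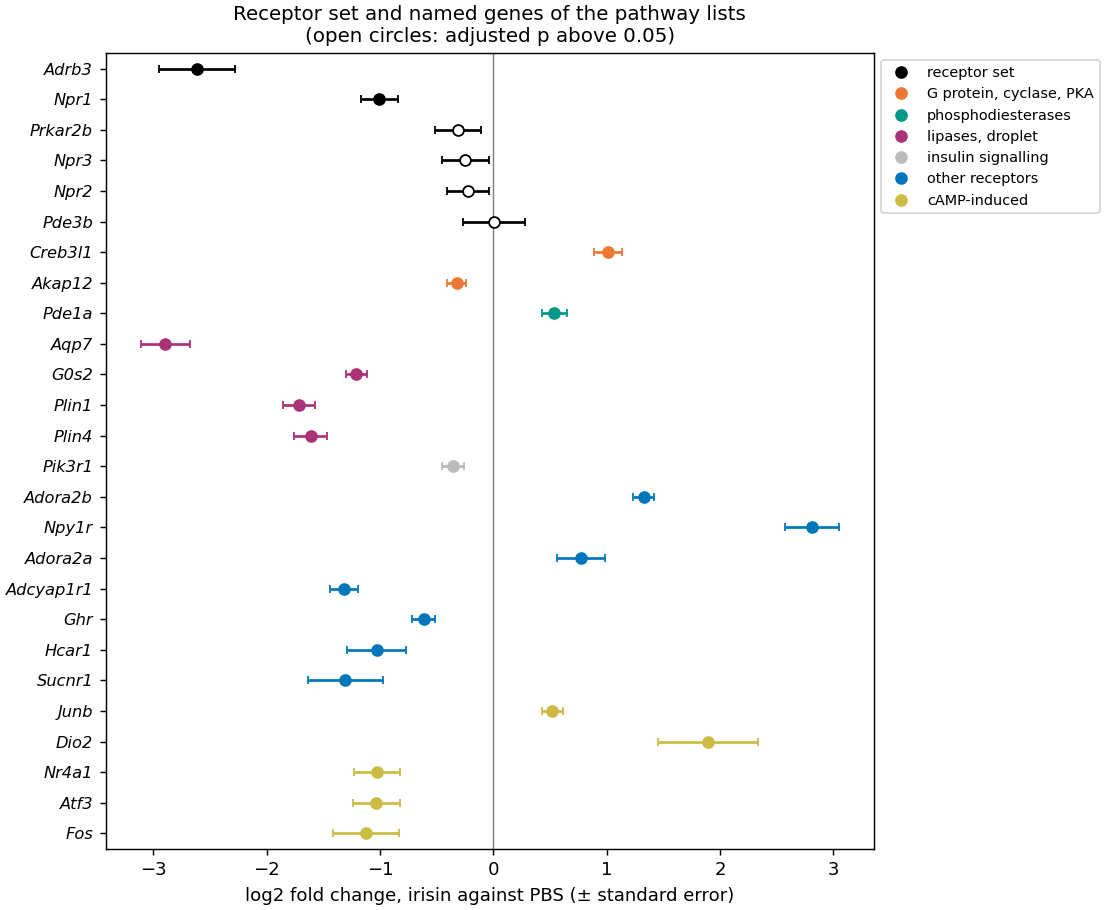
Log2 fold change of irisin against PBS (horizontal axis, ± standard error) for the 6 tested genes of the receptor set and the named genes of the pathway lists, coloured by list. Filled circles passed an adjusted p of 0.05, and Prkar2b, Npr3, Npr2 and Pde3b are open.

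The relay between receptor and kinase had few calls, at shares close to those of all genes for its larger list. Of 12 other adrenergic receptors, receptor kinases and arrestins 7 were tested, and edgeR called 0 in either direction, as did DESeq2, limma-voom and an unadjusted p of 0.05. Of 26 genes for G proteins, adenylyl cyclases, PKA and its anchors 23 were tested, with 1 lower and 1 higher (4.35% each, beside 3.22% and 4.2% of all genes). Akap12, a scaffold that anchors PKA near β-receptors, fell from 200.5 ± 11.5 to 160.0 ± 6.56 CPM (log2 -0.33 ± 0.08, adjusted p = 0.0344). Its call was lost with DESeq2 (adjusted p = 0.0509) and on omitting PBS replicate 1, PBS replicate 2 or any 1 irisin library (0.0601 to 0.175). Creb3l1 rose from 30.6 ± 2.59 to 61.7 ± 6.99 CPM (log2 1.01 ± 0.12, adjusted p = 0.000156). It belongs to the CREB family by sequence, but is a factor of the endoplasmic reticulum membrane known for collagen secretion. This list held 3 falls with limma-voom or total counts, 2 when PBS replicate 3 was left out and 3 when irisin replicate 1 was left out as well.

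Phosphodiesterases other than Pde3b had 12 of 18 members tested. In edgeR 1 was higher (8.33%, beside 4.2% of all genes) and 0 lower (beside 3.22%). Also 0 were lower at an unadjusted p of 0.05, and 0 in DESeq2 and limma-voom. Pde1a, which calcium and calmodulin activate, rose from 127 ± 19.2 to 184.5 ± 14.1 CPM (log2 0.54 ± 0.11, adjusted p = 0.00886). The call was lost without PBS replicate 1 (adjusted p = 0.0557) or PBS replicate 2 (0.0514), and 2 members were higher without PBS replicate 3. In the insulin route to Pde3b 14 of 15 genes were tested, and 1 was lower (7.14%, beside 3.22% of all genes). This was Pik3r1, the regulatory subunit of PI3-kinase (log2 -0.35 ± 0.10, adjusted p = 0.0484). It lost its call in each fit without a single library (adjusted p 0.0562 to 0.219), and with DESeq2 (0.0890), RLE factors (0.0518) and no low-count filter (0.0512). Its falls numbered 3 with limma-voom or when PBS replicate 3 was left out, and 4 when irisin replicate 1 was left out as well.

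Other receptors known to raise or restrain lipolysis went in both directions. Of 25 such genes 10 were tested, 3 higher (30.0%, beside 4.2% of all genes) and 4 lower (40.0%, beside 3.22%). Npy1r, the neuropeptide Y receptor that lowers cAMP, was at 3.92, 2.06 and 2.21 CPM in PBS and 19.7, 18.6 and 20.4 CPM in irisin. The irisin libraries were close to each other and far above PBS, a 7.01-fold rise (log2 2.81 ± 0.24, adjusted p = 6.20e-06). Adora2b, an adenosine receptor that raises cAMP, was at 48.6, 47.7 and 49.0 CPM in PBS and 128, 115 and 122 CPM in irisin (log2 1.33 ± 0.09, adjusted p = 1.24e-06). Its relative Adora2a rose from 6.61 ± 1.38 to 11.4 ± 0.921 CPM (log2 0.77 ± 0.21, adjusted p = 0.0456). That call was lost with DESeq2 (0.0786), with total counts (0.0672) and without PBS replicate 2 or irisin replicate 1, 2 or 3 (0.0782 to 0.173).

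The 4 falls included receptors of both signs. Adcyap1r1, the receptor for the neuropeptide PACAP that raises cAMP, had the highest mean of the list in PBS. It was at 216, 223 and 157 CPM in PBS and 77.1, 80.0 and 82.5 CPM in irisin. All irisin libraries were below all PBS libraries (log2 -1.32 ± 0.12, adjusted p = 1.52e-05). Ghr, the growth hormone receptor, fell from 149.7 ± 6.82 to 97.7 ± 11.4 CPM (log2 -0.62 ± 0.10, adjusted p = 0.00166). Hcar1, the lactate receptor that lowers cAMP in fat cells, fell from 8.52 ± 1.53 to 4.15 ± 1.02 CPM (log2 -1.03 ± 0.26, adjusted p = 0.0288), but not when PBS replicate 1, irisin replicate 2 or irisin replicate 3 was omitted (0.109 to 0.142). Sucnr1, the inhibitory succinate receptor, went from 4.66 ± 1.24 to 1.85 ± 0.314 CPM (log2 -1.31 ± 0.33, adjusted p = 0.0306). It lost its call in each fit without a single library (0.0501 to 0.117), with DESeq2 (0.0605), and in the fit on the 4 libraries that stood together (0.142). Falls in this list numbered 2 with a count minimum of 50, and 2 on omitting PBS replicate 1 or irisin replicate 2 or 3.

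**Figure D4:**
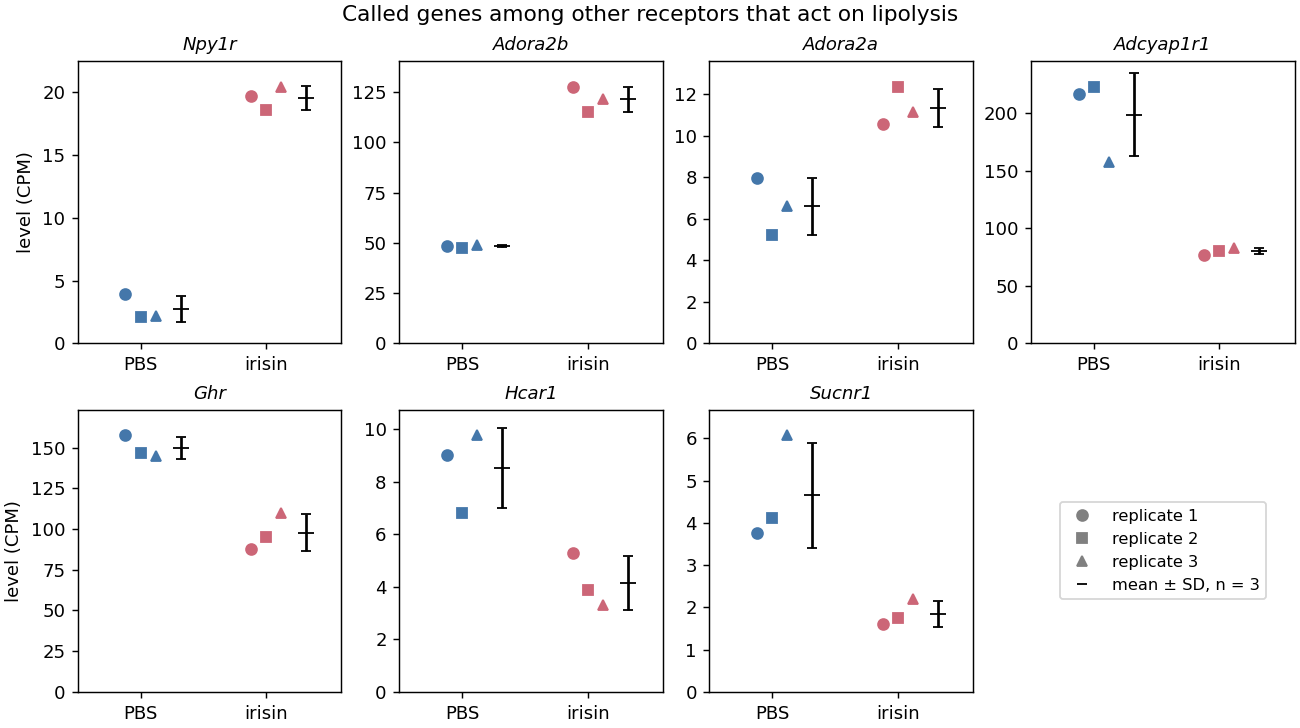
Level (vertical axis, CPM, a separate scale per gene) of the 7 called genes among other lipolysis receptors in each PBS and irisin library, with mean ± SD beside each group. Npy1r, Adora2b and Adora2a are higher with irisin and Adcyap1r1, Ghr, Hcar1 and Sucnr1 lower, with no overlap between groups.

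Genes known to be induced by cAMP were also mixed. Of 16 genes 11 were tested, with 3 lower (27.3%, beside 3.22% of all genes) and 2 higher (18.2%, beside 4.2%). Nr4a1, an orphan nuclear receptor of the early response, fell from 29.3 ± 8.72 to 14.4 ± 0.966 CPM (log2 -1.03 ± 0.20, adjusted p = 0.00688), and the stress factor Atf3 from 17.6 ± 3.51 to 8.69 ± 1.70 CPM (log2 -1.03 ± 0.21, adjusted p = 0.00758). Fos, an AP-1 subunit, fell with overlapping groups (18.2 ± 5.95 to 8.49 ± 3.05 CPM, log2 -1.13 ± 0.29, adjusted p = 0.0398). Its call was lost with a count minimum of 50 (0.0501) and on omitting any 1 of PBS replicates 1 and 2 and irisin replicates 1 and 3 (0.138 to 0.159). Junb, its AP-1 partner, rose from 172 ± 17.6 to 247 ± 5.88 CPM (log2 0.52 ± 0.09, adjusted p = 0.00271). Dio2, the deiodinase that activates thyroid hormone in brown fat, went from 0.760 ± 0.338 to 2.83 ± 0.577 CPM on 3 to 22 counts (log2 1.89 ± 0.44, adjusted p = 0.0186), and did not pass once PBS replicate 1, irisin replicate 1 or irisin replicate 3 was omitted (0.0512 to 0.104). Ppargc1a, a coactivator of heat production in fat, did not pass (log2 -0.03 ± 0.30, adjusted p = 0.978), and Ucp1 had 1 count in 1 PBS library.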

How the data were processed

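For 6 libraries of polyadenylated RNA the authors deposited raw gene counts, keyed by symbol and not normalized. STAR 2.7.3a, featureCounts and mm10 are named, per the submitters' processing notes, while no annotation release, strand or multi-mapping setting is given in the sources used here. From these deposited counts edgeR 4.0.16 (R 4.3.3) computed TMM factors, filtered genes (filterByExpr, minimum count 10) and compared irisin with PBS by its quasi-likelihood test in robust mode, with Benjamini-Hochberg adjustment. Standard errors are the log2 change divided by the square root of the F statistic. Ratios used counts per kilobase with 0.5 added to each count, and exact permutation tests. Exon lengths and positions are from GENCODE M21, which matched 96.4% of symbols, and start windows, matched for 6 of the 8 genes, from RefSeq.

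The 8 genes and all lists were chosen with earlier results of these data known. Named genes were the 8, up to 4 called genes of lowest p per list and direction, and the 3 nearest profiles per called gene, without predicted genes. Alternatives were RLE factors, total counts, DESeq2 1.42.0, limma-voom (limma 3.58.1), other filters, the replicate number as a block, and libraries left out. The edgeR step was tested on simulated data.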

Additional observations from a re-analysis of the deposited data

How the results depend on the processing

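Across the alternatives named above, 2 genes of the receptor set were lower and 0 higher in each of the 14 fits, and log2 changes of Adrb3 ran from -2.83 to -2.21. Over all genes, lower calls were 623 with limma-voom and 602 with total counts, against 396. Leaving out 1 library gave 238 to 585 lower and 336 to 705 higher calls. Without PBS replicate 3 and irisin replicate 1 (added once the data had been seen), 788 were lower and 892 higher.  The difference in the Prkar2b to Prkar2a ratio changed sign, from 0.05 to -0.16 when PBS replicate 3 was omitted and -0.17 when irisin replicate 2 was (range -0.17 to 0.17 over single libraries) and to -0.04 without both doubted libraries; the cause was not tested. With the replicate number as a block, 269 genes were lower and 422 higher, and Adora2a, Akap12, Dio2, Hcar1, Pik3r1 and the endothelial Tek lost their calls. Deviations from the group means correlated at -0.24, 0.16 and -0.18 for replicates 1, 2 and 3. The value for PBS replicate 3 with irisin replicate 1 was 0.36. Pairing by number was thus not seen. These correlations cannot decide it, because deviations around a mean of 3 libraries depend on each other. Of 305 alternative fits of the 22 named genes that were called, 258 kept the call, 47 (in 8 genes) lost it, and all 305 kept the direction. The 4 genes of the receptor set that were not called stayed uncalled in all 55 of theirs, and the near-zero change of Pde3b had the opposite sign in 7. The count of Pde3b (20 to 27) limits its interval, and Adrb1 and Adra2a lay at or under the detection limit.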

Other observations

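Gnas, the gene of the stimulatory G protein through which β-receptors act, had only 4 to 17 counts in a library and was not tested. In GENCODE M21 it shares 2457 of its 11186 exon bases with exons on the opposite strand. How counting treated such bases is not given in the sources used here, so the low count of Gnas was not read as its expression level. Gnai3 and Gnai2, inhibitory counterparts, had 1700 to 2221 and 276 to 416 counts.

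Slc36a2, an amino acid transporter placed in the adipocyte list, rose while the 8 other genes of that list that were tested were lower. Its level was 50.7, 40.1 and 38.7 CPM in PBS and 167, 159 and 148 CPM in irisin (log2 1.87 ± 0.12, edgeR adjusted p = 4.21e-07).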
